A study of Mus musculus with 12 samples.

Results

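Ribosomal proteins are the protein part of the cytosolic ribosome, in which a large and a small subunit join on an mRNA to make protein. Their mRNAs are abundant in every cell, begin with a run of pyrimidines (C and U) known as the 5′ terminal oligopyrimidine (TOP) tract, and are translated under the control of the kinase mTOR and the RNA-binding protein LARP1. Growing and dividing cells hold more of them than resting cells. In the brain, neurons carry ribosomes into their dendrites and axons as well as the soma.

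The cytosolic ribosomal protein genes described here are the 86 of 21956 genes in the count table whose symbols follow the ribosomal protein nomenclature. They comprise 52 large-subunit genes (Rpl and the P-stalk genes Rplp0, Rplp1 and Rplp2) and 34 small-subunit genes (Rps, Rpsa and Fau). Ribosomal S6 kinases and genes named as pseudogenes were left out, and the rule reads the symbol alone. RNA was sequenced from brain tissue of 12 mice, 3 in each of 4 groups. All were floxed at Fabp4, the gene of a fatty acid binding protein that carries lipids in macrophages and microglia. Fabp4CKO mice also carried Tmem119-CreERT2, which removes Fabp4 in cells that express the microglial gene Tmem119 once tamoxifen is given, whereas the controls (labelled fl_fl, written Fabp4fl/fl here) were described without that Cre. The surgery groups were sham and ICH (intracerebral hemorrhage), the latter made by collagenase injected into the right striatum, with tissue around the hematoma taken 48 h later. The groups are called Sham-Fabp4fl/fl, Sham-Fabp4CKO, ICH-Fabp4fl/fl and ICH-Fabp4CKO. The sources used here did not give the age of these mice or whether the controls received tamoxifen.

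The libraries held 15650813 to 22406216 counts each. Fabp4 had 24 to 63 counts in ICH-Fabp4fl/fl mice and 3 to 10 in ICH-Fabp4CKO mice, and 0 to 2 in the sham mice. Markers of neurons, astrocytes, oligodendrocytes and microglia were present in every library. ICH-Fabp4fl/fl mouse 1 stood apart in its share of mitochondrial mRNA (16.3% of counts, against 7.90% to 11.9% in the other 11 libraries). The Sham-Fabp4fl/fl mice held 847 to 3162 CPM (counts per 1000000, scaled between libraries by TMM factors) of 4 choroid plexus markers summed, against 42.1 to 48.8 CPM in the Sham-Fabp4CKO mice. In bulk tissue, fewer cells of a type and less RNA per cell cannot be told apart.

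The annotated start sites of some members show the pyrimidine tract that this family is known for, and 7 of them are printed because the results below turn on these genes or on their contrast with a paralog. Each runs from 5 bases before the RefSeq start to 25 bases from it (GRCm38.p6), and capitals mark its longest unbroken run of C and T. Rps6 lies at chr4:86857343-86857372 on the minus strand, Fau at chr19:6057942-6057971 on the plus strand, Rplp2 at chr7:141447646-141447675 on the plus strand and Rpl18 at chr7:45718066-45718095 on the plus strand. Rps27 lies at chr3:90213624-90213653 on the minus strand, Rps27l at chr9:66946081-66946110 on the plus strand (the upstream one of its 2 listed starts) and Rpl22l1 at chr3:28805503-28805532 on the plus strand.
Rps6: cgggCCTCTTTTTCgtgacgcctcccaggc
Fau: caCTTCTTCCTCTTTCTTgactccatcttc
Rplp2: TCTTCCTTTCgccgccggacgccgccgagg
Rpl18: aggccgCTCTTTCCCCgcccactccggcgc
Rps27: tcgCTCCTTTCCggcggtgacgacctccct
Rps27l: ccgccgCCTCTatcccggaagttgctgagg
Rpl22l1: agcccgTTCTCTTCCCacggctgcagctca

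A RefSeq start was at hand for 65 of the 86 members. Of these, 31 (47.7%) had a run of at least 7 C or T in this window of 30 bases at 1 or more of their listed starts, against 18.7% of all 27025 genes with a start. The longest run had a median of 6 bases in members and 4 bases in all genes. Rpl22l1, whose level moved least after ICH, had a run of 10 bases, as did Rps6, Rplp2 and Rpl18. Rps27l, which showed the largest fold, had a run of 5 bases at this start. Annotated starts need not be the bases at which transcription begins in this tissue, and the letters are a description only.

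Ribosomal protein mRNA was higher after ICH in Fabp4fl/fl mice across nearly the whole family. The summed level of the 86 members was 14595, 12315 and 13018 CPM in the 3 Sham-Fabp4fl/fl mice and 35923, 24320 and 21193 CPM in the 3 ICH-Fabp4fl/fl mice. Every ICH mouse lay above every sham mouse, and mouse 1 lay well above the other two. The family took 1.25% to 1.53% of all counts in the 6 sham libraries of both genotypes and 2.12% to 3.23% in ICH-Fabp4fl/fl. Of the 83 members that passed the filter on low counts, 79 rose (47 of 49 large-subunit and 32 of 34 small-subunit members), 0 fell and 4 did not pass (edgeR's quasi-likelihood test, Benjamini-Hochberg adjusted p under 0.05 over 14719 genes). The background was 26.2% of all genes tested called higher and 19.3% called lower. The median log2 fold change of the 83 members was 0.97, with quartiles of 0.82 and 1.15, beside 0.02 for all genes tested.

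**Figure D1:**
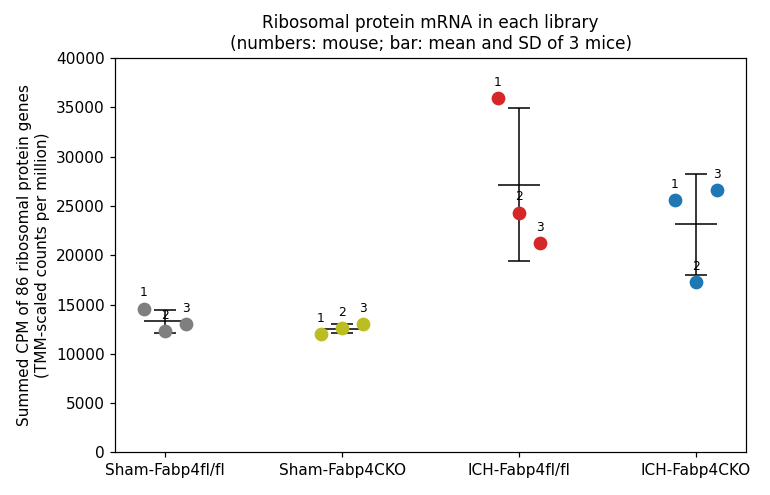
Summed TMM-scaled CPM of the 86 ribosomal protein genes on the vertical axis for each of the 12 libraries, by group. Points are mice with their number, and bars are the mean and SD of 3 mice. The sham mice lie between 12029 and 14595 CPM and all 6 ICH mice between 17249 and 35923 CPM, with the widest spread in ICH-Fabp4fl/fl.

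The rise was seen in single mice as well as in the group means. In ICH-Fabp4fl/fl mice 1, 2 and 3, respectively 83, 80 and 83 of the 83 members lay above every Sham-Fabp4fl/fl mouse. The 3 ICH mice did not overlap the 3 sham mice for 80 members, against 34.4% of all genes tested in this direction. The median log2 ratio to the sham mean was 1.47 in mouse 1, 0.80 in mouse 2 and 0.66 in mouse 3, so that the size differed between mice more than the direction did. The count of called members depended on single sham mice. It was 33 without Sham-Fabp4fl/fl mouse 2 and 47 without mouse 3, and 60 to 79 without any other of the 6 libraries. Calls over all genes fell as well, from 3862 higher to 2633 without Sham-Fabp4fl/fl mouse 2 and 3032 without mouse 3, and 82 of 83 log2 fold changes stayed above 0 in all 6 of these fits.

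The P-stalk is the flexible arm of the large subunit that recruits elongation factors. Rplp0, its base, was at 253, 203 and 208 CPM in Sham-Fabp4fl/fl and at 1097, 764 and 569 CPM in ICH-Fabp4fl/fl. It had the smallest p of all members (log2 fold change 1.83 ± 0.26 SE, adjusted p = 0.00175). Its partners Rplp2 (1.32 ± 0.23, adjusted p = 0.00434) and Rplp1 (1.06 ± 0.23, adjusted p = 0.00914) rose as well. None of the 3 genes overlapped between sham and ICH mice.

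Among small-subunit genes, Rps2 and Rpsa are core proteins, Rpsa also being known as a laminin receptor, Fau encodes a ubiquitin-like fusion to S30, and Rps6 is the protein phosphorylated by S6 kinase. Rps2 was at 321, 275 and 307 CPM in sham and at 1199, 863 and 641 CPM after ICH (1.54 ± 0.24, adjusted p = 0.00276). Rpsa was at 580, 499 and 559 CPM in sham and at 1725, 1295 and 973 CPM after ICH (1.24 ± 0.23, adjusted p = 0.00569). Rps6 was at 366, 318 and 311 CPM in sham and at 796, 564 and 490 CPM after ICH (0.85 ± 0.21, adjusted p = 0.0157). For each of these genes the lowest ICH mouse was above the highest sham mouse. Fau rose by 1.06 ± 0.23 on the log2 scale (adjusted p = 0.01).

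Rpl5 and Rpl11 form with 5S RNA the particle that binds Mdm2 and so restrains p53 breakdown when ribosome assembly fails. Rpl5 was at 220, 206 and 186 CPM in sham and at 534, 373 and 326 CPM after ICH (0.96 ± 0.21, adjusted p = 0.00934). Rpl11 was at 174, 143 and 143 CPM in sham and at 395, 278 and 236 CPM after ICH (0.94 ± 0.21, adjusted p = 0.0115). Both stood close to the family's median. Rpl18, a core protein of the large subunit, was among the 5 members with the smallest p (1.21 ± 0.20, adjusted p = 0.00339), beside Rplp0, Rps27l, Rps2 and Rplp2.

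Rpsa, Rpl3 and Rpl4 took the most counts of the family, with a mean over the 12 libraries of 862, 632 and 597 CPM. Per kilobase of transcript they were less far from other members, at 445, 468 and 388 CPM per kb, below Rps15 at 627 CPM per kb. These values depend on the 1 annotated transcript taken for each gene. Its length was 1938 bp for Rpsa, with 885 bp coding, and 500 bp for Rps15, with 435 bp coding. At the other end, Rpl10l, Rpl39l and Rpl3l, tissue-restricted copies known from testis or muscle, did not pass the filter. Rpl10l had 0 counts in all 12 libraries, Rpl3l 0 to 10 and Rpl39l 0 to 5. They are the 3 members not tested in any comparison.

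The 5 paralogs with enough counts to compare differed in where they stood against their parents. Rps27l is a close copy of Rps27 whose human form is induced by p53. It was at 6.65, 6.25 and 6.46 CPM in Sham-Fabp4fl/fl and at 37.3, 22.1 and 17.4 CPM in ICH-Fabp4fl/fl, the largest log2 fold change of the family (1.94 ± 0.28, adjusted p = 0.00187). Rps27 itself was at 65.2, 61.6 and 85.2 CPM in sham and at 149, 81.3 and 94.2 CPM after ICH. Its groups overlapped, and it did not pass the test (0.57 ± 0.25, adjusted p = 0.0949).

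Rpl22l1, Rps4l and Rpl7l1 showed the opposite order. Rpl22l1, a copy of Rpl22 that stands in for it when Rpl22 is lost, was at 18.4, 18.7 and 21.5 CPM in sham and at 26.7, 17.8 and 22.1 CPM after ICH. It had the smallest change of the family (0.14 ± 0.18, adjusted p = 0.54), and its groups overlapped, while Rpl22 rose by 0.98 ± 0.20 (adjusted p = 0.00722). Rps4l, a copy of Rps4x that GENCODE classes as a transcribed pseudogene, had a log2 fold change of 0.35 ± 0.26 (adjusted p = 0.303), whereas Rps4x rose by 1.12 ± 0.21 (adjusted p = 0.00569). Rpl7l1 rose by 0.47 ± 0.16 (adjusted p = 0.0484) and Rpl7 by 0.99 ± 0.23 (adjusted p = 0.0118). Rpl36al and Rpl36a rose by 0.92 ± 0.25 and 0.94 ± 0.24. The parents Rpl10 and Rpl39 rose by 1.07 ± 0.24 and 1.20 ± 0.26, and Rpl3, the fourth member that did not pass, had a log2 fold change of 0.45 ± 0.18 (adjusted p = 0.07).

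A ratio of 2 counts in 1 library does not rest on how libraries were scaled, so paralog and parent were also compared within each mouse. These ratios were formed after the fold changes were seen and are given with no test. The log2 ratio of Rps27l to Rps27 was -3.72 to -3.29 in the 6 sham mice and -2.44 to -1.88 in the 3 ICH-Fabp4fl/fl mice. In ICH-Fabp4CKO it was -2.02 and -1.98 in mice 1 and 3 and -3.19 in mouse 2, which lay only just above the highest sham mouse of its genotype (-3.31). The log2 ratio of Rpl22l1 to Rpl22 went the other way, from a mean of -1.71 ± 0.25 (SD, n = 3) in Sham-Fabp4fl/fl to -2.53 ± 0.29 in ICH-Fabp4fl/fl. In CKO mice it went from -1.78 ± 0.25 to -2.72 ± 0.36. Rps4l against Rps4x went from -4.06 ± 0.25 to -4.84 ± 0.38 in Fabp4fl/fl mice and from -3.82 ± 0.10 to -5.22 ± 0.40 in CKO mice, and Rpl7l1 against Rpl7 from -2.52 ± 0.05 to -3.03 ± 0.14 and from -2.45 ± 0.10 to -2.91 ± 0.13. For these 4 pairs, sham and ICH mice of the same genotype did not overlap in either genotype. For Rpl36al against Rpl36a they overlapped in both.

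**Figure D2:**
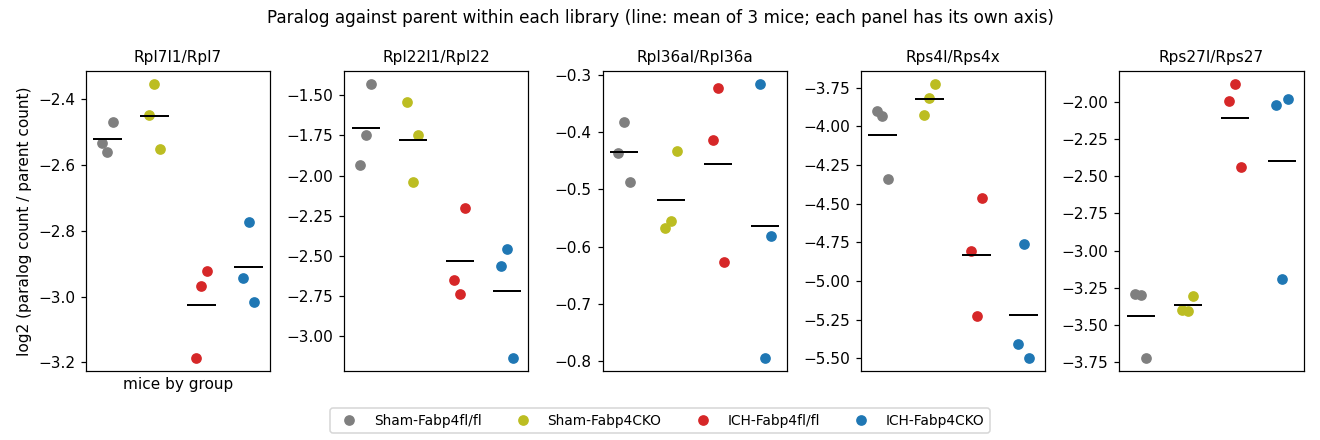
Log2 of the paralog's count over its parent's count in each library for 5 pairs, each panel with its own vertical axis. Points are mice, coloured by group, and lines are means of 3 mice. Rps27l/Rps27 is higher in ICH mice, Rpl22l1/Rpl22, Rps4l/Rps4x and Rpl7l1/Rpl7 are lower, and Rpl36al/Rpl36a overlaps between sham and ICH.

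Near-identical copies outside the family could share counts with members. The processed pseudogene Rpl10-ps3 had 3134 to 8997 counts a library against 1575 to 4939 for Rpl10, and more than Rpl10 in all 12 libraries, so the level of Rpl10 is uncertain. The retrocopy Rps27rt had 89 to 143 counts against 1061 to 2111 for Rps27. With its counts added to those of Rps27, the log2 ratio of Rps27l to Rps27 was 1.17 higher after ICH (mean of both genotypes), against 1.15 without them.

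The same comparison in Fabp4CKO mice asks whether the family also moved where microglia had lost Fabp4. The summed level was 12029, 12630 and 13005 CPM in the 3 Sham-Fabp4CKO mice and 25567, 17249 and 26618 CPM in the 3 ICH-Fabp4CKO mice. The groups did not overlap, and ICH mouse 2 lay closest to sham. Of the 83 members, 77 rose (45 of 49 large-subunit and 32 of 34 small-subunit members), 0 fell and 6 did not pass. The background was 24.5% of 14737 genes called higher and 11.1% called lower. The median log2 fold change was 0.89, beside 0.01 for all genes tested. For 81 members all 3 ICH mice lay above all 3 sham mice, against 33.2% of all genes tested.

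The 5 members with the smallest p were Rps28 (1.61 ± 0.19, adjusted p = 0.00589), Rps29 (1.08 ± 0.14, adjusted p = 0.00628), Rps21 (0.67 ± 0.10, adjusted p = 0.00866), Rps16 (1.25 ± 0.19, adjusted p = 0.00876) and Rpl10a (1.33 ± 0.21, adjusted p = 0.00898). All but Rpl10a are small-subunit proteins. Rps28 was at 12.2, 10.1 and 12.1 CPM in Sham-Fabp4CKO and at 40.5, 26.9 and 37.0 CPM in ICH-Fabp4CKO. Rplp0 was at 200, 214 and 208 CPM in sham and at 828, 408 and 864 CPM after ICH (1.76 ± 0.30, adjusted p = 0.0111), with mouse 2 again the lowest of the ICH mice. Rps27l was at 5.04, 4.48 and 5.52 CPM in sham and at 24.9, 8.42 and 23.8 CPM after ICH (1.93 ± 0.42, adjusted p = 0.0201). The groups of all 3 genes were apart.

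Most of the other named members rose as well. Rplp2 rose by 1.13 ± 0.22, Rplp1 by 0.63 ± 0.17, Rpsa by 0.84 ± 0.21, Fau by 1.11 ± 0.20, Rps6 by 0.83 ± 0.20, Rpl5 by 1.16 ± 0.23 and Rpl11 by 0.79 ± 0.19, with adjusted p between 0.0119 for Fau and 0.0326 for Rplp1. Of the parents, Rps27 rose by 0.81 ± 0.14 (adjusted p = 0.0117) and Rpl3 by 0.48 ± 0.15 (adjusted p = 0.0454). The parents Rpl7, Rpl10, Rpl22, Rpl36a, Rpl39 and Rps4x rose by 0.92, 1.08, 1.16, 0.99, 1.34 and 1.22, and the paralog Rpl36al by 0.98 ± 0.27. The 6 members that did not pass were Rpl22l1 (0.20 ± 0.19), Rpl7l1 (0.44 ± 0.15), Rps4l, Rpl8 (0.54 ± 0.18), Rpl13 (0.54 ± 0.19) and Rps15a (0.61 ± 0.20). Rps4l, at 15.2, 17.0 and 18.6 CPM in sham and 14.6, 14.0 and 14.7 CPM after ICH, was the single member with a negative log2 fold change (-0.23 ± 0.13, adjusted p = 0.203). Rpl8, Rpl13 and Rps15a lie outside the rule for named genes and are given after their values were seen.

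Calls in the CKO mice rested on few libraries. Leaving out any 1 of the 3 sham mice left 2 members called, Rps28 and Rps29 each time, while calls over all genes also fell, from 3605 higher to between 701 and 796. Without ICH-Fabp4CKO mouse 1, 12 members and 1435 of all genes were called higher, and without mouse 3, 40 members and 2350 genes. Without ICH-Fabp4CKO mouse 2, 81 members and 5203 genes were called higher. The median log2 fold change stayed between 0.76 and 1.06 in these 6 fits, and the 82 members above 0 were above 0 in all of them.

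**Figure D3:**
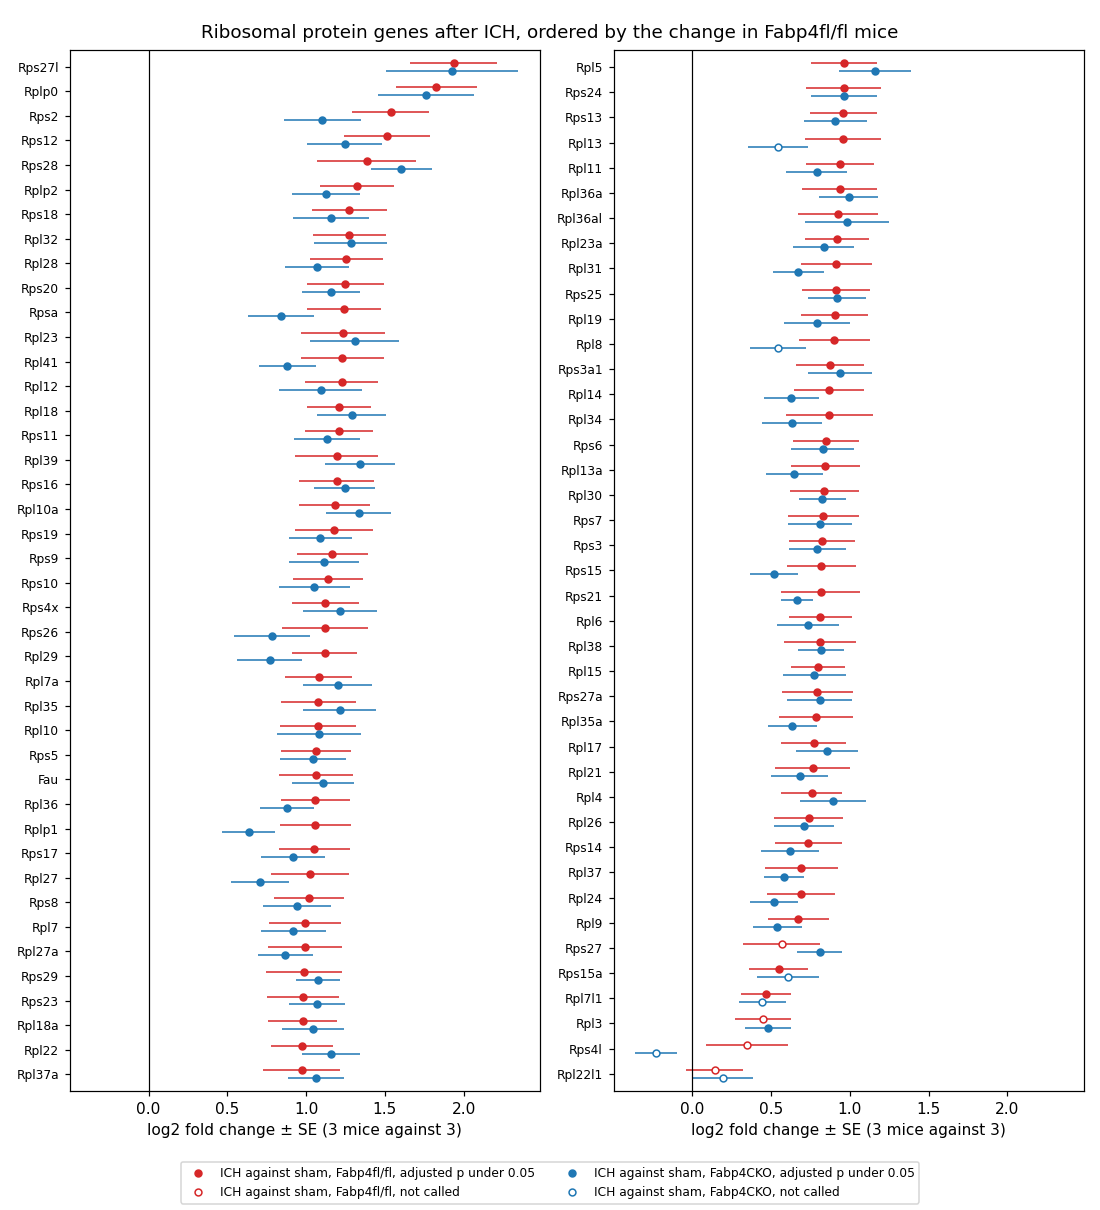
Log2 fold change (horizontal axis) with its SE for the 83 members tested, ICH against sham, in Fabp4fl/fl mice (red) and Fabp4CKO mice (blue), ordered by the change in Fabp4fl/fl mice. Filled points passed the adjusted threshold (79 and 77 members) and open points did not. Rps27l and Rplp0 head the order, and Rps4l and Rpl22l1 end it.

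Markers of other cell types moved with these comparisons. The 6 markers of infiltrating monocytes or macrophages summed to 0.58 to 2.36 CPM in the sham mice and 99.6 to 685 CPM in the ICH mice, and 6 of 6 rose in each genotype. The 6 markers of dividing cells summed to 48.6 to 61.7 CPM in sham and 113 to 603 CPM after ICH, again with 6 of 6 called in each genotype. The 6 microglial markers summed to 412 to 502 CPM in sham and 1610 to 4635 CPM after ICH and rose 6 of 6 in each genotype, as did all 5 neutrophil markers tested. Endothelial markers rose 4 of 4 in Fabp4fl/fl mice and 2 of 4 in CKO mice, and astrocyte markers 3 of 5 in each. Of the lymphocyte markers, 3 of 3 tested rose in Fabp4fl/fl and 2 of 2 in CKO mice. In Fabp4fl/fl mice 3 of 5 erythroid markers and 1 of 5 oligodendrocyte markers were called higher, and in CKO mice none was. The median log2 fold change of the erythroid markers was 1.38 in Fabp4fl/fl and 2.88 in CKO mice. They summed to 1116, 143 and 120 CPM in ICH-Fabp4CKO mice 1, 2 and 3. For the oligodendrocyte markers the medians were 0.69 and -0.22. Of 5 striatal neuron markers, 0 were called in either genotype. Their median log2 fold change was -0.21 in Fabp4fl/fl and -1.09 in CKO mice. Of 6 neuron markers, 5 fell in Fabp4fl/fl mice and 2 in CKO mice. Of 4 choroid plexus markers, 4 and 3 fell. Within ICH-Fabp4fl/fl, mice 1, 2 and 3 held 685, 275 and 110 CPM of monocyte or macrophage markers and 1015, 1433 and 2227 CPM of neuron markers. Within ICH-Fabp4CKO, mice 1, 2 and 3 held 480, 99.6 and 399 CPM of the former and 1266, 2658 and 904 CPM of the latter. In both genotypes the mouse with the lowest summed ribosomal protein mRNA was the one with the fewest monocyte or macrophage markers and the most neuron markers. No defining marker of these lists was at 0 in all libraries. The part of cell composition in the result was not tested.

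The gene's length moved with the result too. Members are short, with coding lengths of 75 to 1257 bp (median 453 bp) in the 85 members that have one. Rps4l, kept by its symbol, is classed as a transcribed processed pseudogene with no coding sequence in the annotation used, and so is absent from the length fit. Among genes outside the family, those with a coding length of 300 bp or less had a median log2 fold change of 0.31 for ICH against sham in Fabp4fl/fl mice, and those over 2400 bp one of -0.23. In CKO mice the same classes were at 0.07 and -0.09. With a trend on coding length removed from each library, an alternative chosen after the data were seen, 67 of 82 members remained higher in Fabp4fl/fl mice (median 0.73) and 75 of 82 in CKO mice (median 0.87). Over all genes, these fits called 3737 of 14669 and 3578 of 14689 higher.

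**Figure D4:**
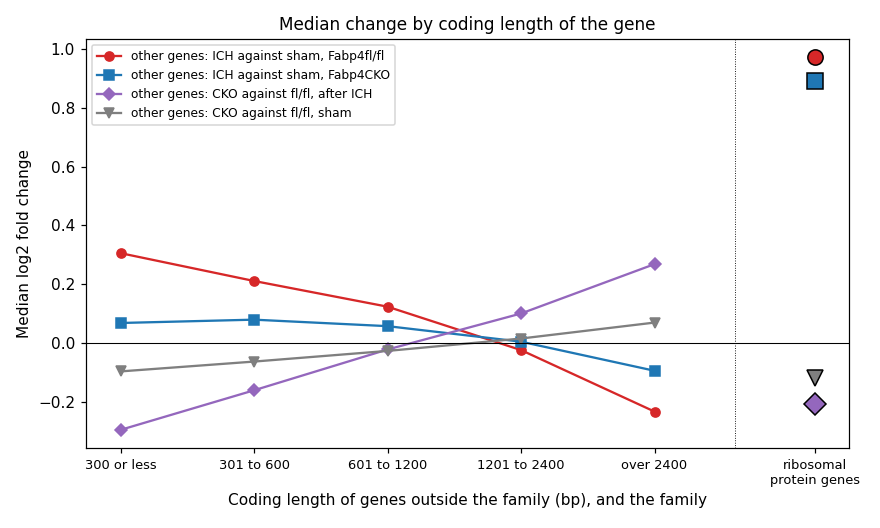
Median log2 fold change of genes outside the family in 5 classes of coding length (lines), and of the ribosomal protein genes (outlined symbols at the right), for the 4 comparisons of 2 groups. For ICH against sham the family lies at 0.97 and 0.89, far above genes of like length. Between genotypes after ICH its median of -0.21 lies between those of genes up to 300 bp (-0.30) and of 300 to 600 bp (-0.16). In sham its median of -0.12 lies below that of every class, the nearest being -0.10 for genes up to 300 bp.

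Comparisons between genotypes use the same libraries as those between sham and ICH. After ICH, no member passed the test. The summed level was 21193 to 35923 CPM in ICH-Fabp4fl/fl and 17249 to 26618 CPM in ICH-Fabp4CKO, with overlapping ranges. Of 83 members, 0 were higher and 0 lower, with 0 at an unadjusted p under 0.05. With all 12 libraries in one fit, 4 members were lower at that level and 0 passed the adjusted threshold. That fit called 154 of 15089 genes higher and 208 lower. In the fit of the 2 groups, edgeR called 0% of 14600 genes higher and 0% lower, with 1777 genes at an unadjusted p under 0.05. DESeq2 called 255 genes higher and 323 lower, none of them a member. The log2 fold change was below 0 for 77 of 83 members, against 43.8% of all genes tested. Their median was -0.21, beside 0.06 for all genes, and a member's median SE was 0.28.

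The members nearest to a call were lower in CKO mice. Rps4l had a log2 fold change of -0.50 ± 0.25 (adjusted p = 0.466), Rpl36 of -0.48 ± 0.25 (adjusted p = 0.491), Rpl41 of -0.50 ± 0.30 (adjusted p = 0.533), Rps21 of -0.39 ± 0.25 (adjusted p = 0.552) and Rpl38 of -0.41 ± 0.26 (adjusted p = 0.553). Rpl41, the smallest protein of the ribosome, was at 501, 291 and 271 CPM in ICH-Fabp4fl/fl and at 268, 183 and 269 CPM in ICH-Fabp4CKO. It and Rpl36 were the 2 members whose mice did not overlap, against 11.5% of all genes tested. On the higher side stood Rpl10 (0.20 ± 0.35), Rpl4 (0.08 ± 0.26), Rpl5 (0.07 ± 0.29), Rpl3 (0.04 ± 0.20) and Rpl17 (0.02 ± 0.27), and Rpl7a was nearest to 0 (0.00325 ± 0.28).

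The negative median rested on single mice and moved with gene length. It was 0.04 without ICH-Fabp4fl/fl mouse 1, the library with the highest mitochondrial share, and -0.03 without ICH-Fabp4CKO mouse 2. Genes outside the family with coding lengths of 300 bp or less had a median of -0.30 in the same comparison, and those over 2400 bp one of 0.27. With the length trend removed, 41 of 82 members lay above 0. The ICH groups also did not overlap in oligodendrocyte markers (5 genes summed, 15354 to 22639 CPM in Fabp4fl/fl and 5861 to 9855 CPM in CKO mice). The same held for endothelial markers (4 genes summed, 377 to 849 CPM and 200.3 to 288 CPM) and lymphocyte markers (5 genes summed, 4.93 to 8.79 CPM and 3.25 to 4.16 CPM). No tested gene of these lists was called between the ICH groups, where edgeR called 0 of all 14600 genes. The groups overlapped in the other lists, microglial markers included (6 genes summed, 1610 to 1793 CPM and 1758 to 4635 CPM). The part of cell composition in these values was not tested.

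In sham mice, most members had a lower mean in the CKO tissue, with no member past the adjusted threshold. The summed level was 12029 to 13005 CPM in Sham-Fabp4CKO and 12315 to 14595 CPM in Sham-Fabp4fl/fl, and the ranges overlapped. Of the 83 members, 0 were called higher (background 0% of 14395 genes) and 0 lower (background 0.111%). At an unadjusted p under 0.05, 19 were lower and 0 higher, against 6.07% of all genes lower. With all 12 libraries in one fit, 1 member was lower at that level, and with the length trend removed, 13 were. Leaving out 1 library gave 8 to 26, with 8 without Sham-Fabp4CKO mouse 2 and 12 without mouse 1. The 6.07% comes from the fit that gave 19 members, and the other counts have no such background here. The median log2 fold change was -0.12, beside 0.00259 for all genes, and removing the length trend brought the gap between these medians from -0.12 to -0.06. For 29 members all 3 CKO mice lay below all 3 Fabp4fl/fl mice, against 8.86% of all genes tested.

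Rpl39, a small protein at the exit tunnel, was at 23.6, 19.3 and 21.4 CPM in Sham-Fabp4fl/fl and at 15.2, 13.6 and 12.6 CPM in Sham-Fabp4CKO. Its log2 fold change was -0.62 ± 0.12 (adjusted p = 0.229), the largest in either direction, and it was the 1 member of 83 that DESeq2 called (-0.63, adjusted p = 0.00846). Over all genes, DESeq2 called 139 of 14395 lower in this comparison. In order of p, not of size, Rpl38 followed at -0.41 ± 0.09, Rpl18 at -0.29 ± 0.07, Rpl36al at -0.37 ± 0.10 and Rps20 at -0.30 ± 0.08. Their adjusted p ran from 0.322 to 0.421. For Rpl18 the values were 78.0, 74.8 and 74.3 CPM in Fabp4fl/fl and 59.0, 62.9 and 61.9 CPM in CKO mice. These groups were apart, by less than the change seen after ICH. On the higher side the smallest p belonged to Rpl10 (0.19 ± 0.09), Rpl13 (0.19 ± 0.12), Rps26 (0.18 ± 0.13), Rpl8 (0.13 ± 0.10) and Rps2 (0.10 ± 0.10), and Rpl3 was nearest to 0.

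Single libraries decided the sham calls. Without Sham-Fabp4fl/fl mouse 3, which held the most choroid plexus marker mRNA (3162 CPM), 7 of 83 members were lower (Rpl18, Rpl22, Rpl36a, Rpl36al, Rpl38, Rpl39 and Rps20). Calls over all genes went from 0 higher and 16 lower to 1531 and 1331 of 14602 genes. Members were thus called lower in that fit about as often as genes in general. Without any other sham library no member was called. The part of the choroid plexus difference in these values was not tested.

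The difference between the 2 ICH responses was tested as an interaction over all 12 libraries. Of 83 members, 0 responded more and 0 less in CKO mice, with 0 at an unadjusted p under 0.05 by edgeR and 0 called by DESeq2. The background was 2 of 15089 genes called higher (0.0133%) and 1 lower (0.00663%). The median interaction was -0.10 on the log2 scale, with a median SE of 0.31, beside 0.03 for all genes. The members nearest to a call were Rps4l (-0.62 ± 0.31, adjusted p = 0.548), Rplp1 (-0.47 ± 0.29), Rpl13 (-0.46 ± 0.32), Rpsa (-0.45 ± 0.32) and Rps2 (-0.48 ± 0.36). On the other side stood Rps27 (0.20 ± 0.31), Rpl22 (0.13 ± 0.28), Rpl5 (0.15 ± 0.32), Rps28 (0.17 ± 0.41) and Rpl10a (0.10 ± 0.32), and Fau was nearest to 0. The median changed sign with single libraries. It was 0.18 without ICH-Fabp4fl/fl mouse 1 and 0.07 without ICH-Fabp4CKO mouse 2, beside 0.05 and -0.03 for all genes. With the length trend removed it was 0.11, beside 0.09 for all genes.

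**Figure D5:**
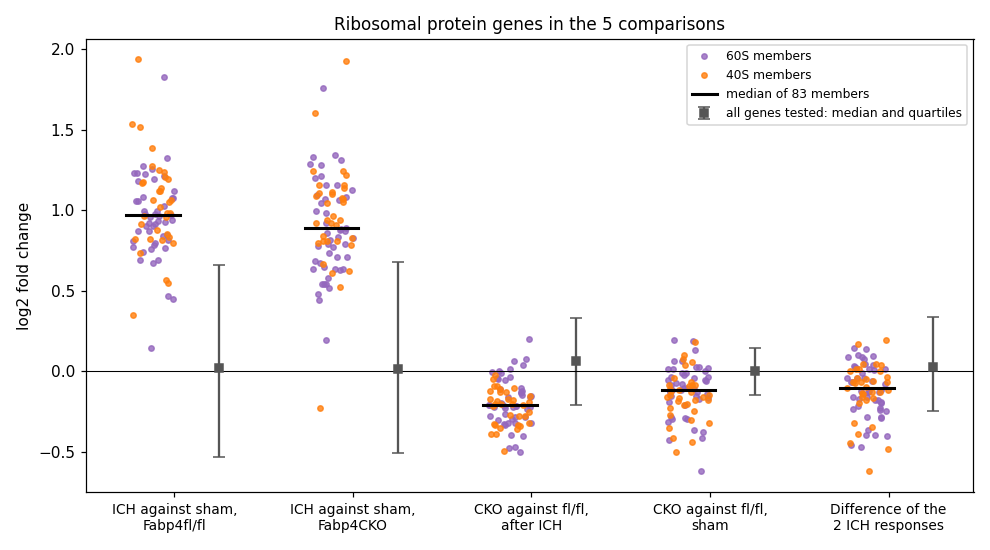
Log2 fold changes (vertical axis) of the 83 tested members in the 5 comparisons, with large-subunit (60S) and small-subunit (40S) members in different colours and a line at their median. Grey squares and bars are the median and quartiles of all genes tested. The members center on 0.97 and 0.89 for ICH against sham, on -0.21 and -0.12 between genotypes, and on -0.10 for the difference of the 2 responses, with large-subunit and small-subunit members intermixed.

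Other genes of the translation machinery were counted in 6 lists, some genes standing in 2 of them. Their counts stand against the background given above, 26.2% of all genes called higher and 19.3% lower in Fabp4fl/fl mice and 24.5% and 11.1% in CKO mice. In ICH against sham, 11 of 13 other RNAs known to start with a pyrimidine tract rose in Fabp4fl/fl mice and 10 of 13 in CKO mice, with medians of 0.91 and 0.80. Pabpc1, the poly(A)-binding protein, rose by 1.69 ± 0.21 in Fabp4fl/fl mice and Vim, the intermediate filament of reactive astrocytes and other cells, by 5.31 ± 0.42. Of 9 elongation factors and partners, 6 rose and 1 fell in Fabp4fl/fl mice (5 and 0 in CKO mice). Eef1b2 (0.85 ± 0.17) and Tpt1 (1.35 ± 0.28) rose, and Eef1a2, the form of the factor used by neurons and muscle, fell by 1.05 on the log2 scale, while Eef1e1 had a log2 fold change of -0.16 ± 0.14.

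The remaining lists were mixed. Of 44 initiation factors tested, 10 rose and 3 fell in Fabp4fl/fl mice and 13 rose and 0 fell in CKO mice (medians 0.33 and 0.39). Eif2s2 (0.92 ± 0.20) and Eif2s1 (0.69 ± 0.16), subunits of the factor that brings the initiator tRNA, rose, and Eif4a2 and Eif4g3 fell by 0.98 and 0.60 on the log2 scale. Of 45 ribosome biogenesis genes, 8 rose and 6 fell in Fabp4fl/fl mice and 10 rose and 0 fell in CKO mice (medians 0.12 and 0.26). In Fabp4fl/fl mice the share called higher was below the 26.2% of all genes in both lists. Fbl, the methyltransferase of ribosomal RNA, rose by 1.14 ± 0.23 and the nucleolar helicase Ddx21 by 1.05 ± 0.17, whereas Wdr12 and Mdn1, which act in large-subunit assembly, fell by 0.53 and 0.63 on the log2 scale.

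The mitochondrial ribosome, a separate machine with its own proteins, gave few calls. Of 78 of its genes, 9 rose and 2 fell in Fabp4fl/fl mice and 3 rose and 6 fell in CKO mice, with medians of 0.14 and -0.06. The shares called higher were below the 26.2% and 24.5% of all genes. Mrps6 (1.72 ± 0.19) and Mrpl33 (1.24 ± 0.22) rose, and Mrps5 and Mrpl3 fell by 0.42 and 0.44 on the log2 scale. Between genotypes after ICH, 6 of its 78 genes had a log2 fold change above 0, with a median of -0.24. Over all 14600 genes tested, 56.2% were above 0, with a median of 0.06. None of the 78 was called, and edgeR called no other gene in that comparison either. Genes outside the cytosolic family with coding lengths up to 300 bp had a median of -0.30 in that comparison. Those of 300 to 600 bp and of 600 to 1200 bp had medians of -0.16 and -0.02. The coding lengths of the mitochondrial ribosome genes were not examined, and the part of length in their median was not tested.

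Of 21 tested genes that control TOP mRNAs or answer to ribosome stress, 8 rose and 5 fell in Fabp4fl/fl mice and 5 rose and 3 fell in CKO mice. Eif4ebp1, a repressor of cap-dependent translation that mTOR inactivates, was at 1.93, 1.10 and 1.08 CPM in Sham-Fabp4fl/fl and at 38.6, 20.2 and 12.4 CPM in ICH-Fabp4fl/fl (4.05 ± 0.47, adjusted p = 0.000871). Cdkn1a, a p53 target that halts the cell cycle, rose by 2.82 ± 0.35. Mtor and Tsc1, a brake on mTOR, fell by 0.99 and 0.85 on the log2 scale in Fabp4fl/fl mice. Between genotypes after ICH, 0 genes of the 6 lists passed the threshold in either direction. As edgeR called 0 of all 14600 genes there, this says nothing particular to the lists.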

How the data were processed

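Poly(A) RNA was sequenced from 12 mice, from perihematomal tissue in the ICH mice and from tissue taken by the same procedure in the sham mice. The authors deposited estimated counts per gene (expected counts, not normalized). The submitters' processing notes name Bowtie2 2.2.8, HISAT2, StringTie 1.3.1 and DESeq2 without their roles. The genome build and annotation are not given in the sources used here. Counts were rounded to whole numbers.

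Each comparison was fitted on the whole table with edgeR 4.0.16 in R 4.3.3 (TMM factors, filterByExpr at its usual minimum of 10 counts and total of 15, quasi-likelihood F-test) on the 2 groups compared, or on all 12 libraries for the interaction, with Benjamini-Hochberg adjustment over all genes tested and a threshold of 0.05. An SE is the log2 fold change divided by the root of F. CPM were computed with TMM factors over all 12 libraries. The test was checked on simulated data. Coding and transcript lengths came from GENCODE M21 and starts from RefSeq (GRCm38.p6). Python 3.11.15, numpy 2.4.6, pandas 2.3.3 and matplotlib 3.10.9 were used for summaries and figures.

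The members, lists and named genes were chosen with earlier results of these data known. Named genes were 8 members with roles at or outside the ribosome edge, the paralogs with their parents, and in each comparison the 5 members with the smallest p in each direction and the one with the smallest change, plus the 3 members with the most and the 3 with the fewest counts. In each list, the 2 genes with the smallest p in each direction in Fabp4fl/fl mice were named.

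The alternatives were other scalings (RLE, upper quartile, total counts, TMM without members and mitochondrial genes), DESeq2 1.42.0, other filters, a replicate block, 1 fit over all 12 libraries, leaving out each library, and a trend on coding length removed. Libraries of a group differed from each other by more than counting error (chi-square per degree of freedom of at least 7.22), so none was taken for a copy.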

Additional observations from a re-analysis of the deposited data

How the results depend on the processing

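For ICH against sham, the members called higher numbered 67 to 81 in Fabp4fl/fl mice and 53 to 81 in CKO mice under every alternative that kept all libraries, against 79 and 77, and none was called lower. Leaving out 1 library gave 33 to 79 in Fabp4fl/fl mice and 2 to 81 in CKO mice, with medians of 0.70 to 1.10 and 0.76 to 1.06. Over all genes, the alternatives that kept all libraries called 3372 to 4370 higher in Fabp4fl/fl mice and 2579 to 4171 in CKO mice. Without 1 library these numbers were 2633 to 4309 and 701 to 5203. Between genotypes after ICH and for the interaction, 0 members were called under any alternative, and the medians without 1 library ran from -0.38 to 0.04 and from -0.25 to 0.18. In sham mice, 1 member was lower by DESeq2, and 0 to 7 without 1 library. Over all genes, 0 to 1331 were lower without 1 library. With the replicate number as a block, 79 members were higher in Fabp4fl/fl mice and 53 in CKO mice. Over all genes, the block called 3967 of 14719 higher in Fabp4fl/fl mice (3862 without it). In CKO mice it called 2579 of 14737 (3605 without it). Same-numbered libraries were not clearly paired: the correlations of their deviations from the group means were 0.056 to 0.24 for ICH against sham in Fabp4fl/fl mice and -0.0031 to 0.017 in CKO mice. The block changed the number of called members in no other comparison, and took the members lower at an unadjusted p under 0.05 in sham mice from 19 to 15. No share of all genes at that level is at hand for the block. Counts over all genes moved more: DESeq2 called 3541 lower for ICH against sham in CKO mice, against 1642, and the fit over all 12 libraries 2558. In sham mice DESeq2 called 11 higher and 139 lower, against 0 and 16, and a minimum of 10 counts in every library left 2 lower. Between genotypes after ICH the fit over all 12 libraries called 154 higher and 208 lower. For the interaction DESeq2 called 183 higher and 83 lower, against 2 and 1. Fits without 1 library leave 2 mice in a group, whose spread is then borrowed largely from the others. With 3 mice a group, a member's median SE between genotypes after ICH was 0.28 on the log2 scale, which limits the differences that could be detected.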
